A study of Mus musculus with 12 samples.

Results

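The 10 selenoprotein mRNAs Txnrd1, Txnrd2, Gpx1, Gpx4, Selenop, Selenow, Selenot, Selenok, Selenof and Selenom were followed in mouse neural stem cells (NSCs). They were listed by symbol, by a rule that uses no measured value, although earlier results of these data were known when they were chosen. They make up 10 of the 43432 gene identifiers in the tables and 10 of the 24 genes with an annotated selenocysteine codon in GENCODE M21. All 10 were present in the 12 libraries and passed the filter on low counts. The cells were adult NSCs of wild-type male C57BL/6 mice aged 6 to 8 weeks, taken from the subventricular zone beside the lateral ventricles and grown as a monolayer with epidermal and basic fibroblast growth factors and B27 supplement, which all groups shared. They were kept for 4 days with folic acid at a low (LF, 1.5 µM), median (MF, 10 µM) or high (HF, 80 µM) concentration. There were 2 libraries of total mRNA and 2 of polysome mRNA for each dose. Polysome mRNA came from the pooled sucrose gradient fractions with more than 3 ribosomes after cycloheximide, a drug that holds ribosomes on their mRNA. The sources used here call the replicates biological but do not say whether they came from separate mice or cultures, so p-values measure the spread between these libraries.

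Selenoproteins carry selenocysteine (Sec), the selenium analogue of cysteine, usually at the active site of an enzyme that moves electrons. Sec is read from UGA, a codon that elsewhere ends translation, and this reading needs a hairpin in the 3′ untranslated region (the SECIS element), its binding protein, a dedicated elongation factor and a dedicated tRNA. Several selenoproteins are antioxidant enzymes that neural cells are known to need, among them the thioredoxin reductases and glutathione peroxidase 4.

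The place of the UGA differed widely among the 10 mRNAs, and the sequences around it are shown because this place is set against the polysome data. Each run is the sense strand of the coding sequence, 5′ to 3′, read from the GENCODE M21 transcripts (GRCm38, the mm10 build) and limited to coding bases. Capitals mark the Sec codon, which for Selenop is the first of 10.
Selenow: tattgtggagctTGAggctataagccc
Selenop: cttcaagccagcTGAtacttgtgtctt
Gpx1: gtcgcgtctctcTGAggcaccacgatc
Selenot: atttgtgtatccTGAgggtaccggcgg
Selenom: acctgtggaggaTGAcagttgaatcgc
Gpx4: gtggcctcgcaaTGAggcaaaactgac
Selenof: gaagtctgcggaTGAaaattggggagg
Selenok: atggctggtggaTGAggaagg
Txnrd2: gtgactggttgcTGAggc
Txnrd1: cagtctggctgcTGAggt

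The lines follow the share of the coding sequence that lies before the first Sec codon, from 13.6% in Selenow to 99.7% in Txnrd1. Sec was residue 13 of 88 in Selenow, residue 59 of 380 in Selenop, 47 of 201 in Gpx1, 49 of 195 in Selenot and 48 of 145 in Selenom. It was residue 129 of 253 in the longest Gpx4 product and 93 of 162 in Selenof. In Selenok, Txnrd2 and Txnrd1 it was residue 92 of 94, 526 of 527 and 612 of 613, so that 1 or 2 residues followed it. The base after the codon, which is known to affect how a UGA is read, was g in 7 of the 10 mRNAs, t in Selenop, a in Selenof and c in Selenom. Selenow also ended on a TGA, whereas the other 9 ended on TAA or TAG.

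Libraries held 20506797 to 23593252 counts for total mRNA and 24193468 to 28170296 for polysome mRNA. The replicates of polysome LF stood apart. Their median absolute log2 difference over genes was 0.56, against 0.16 in polysome MF, 0.20 in polysome HF and at most 0.11 in total mRNA. Polysome LF replicate 2 was the farther from the polysome libraries of the other doses, at a median absolute log2 distance of 0.54, against 0.20 to 0.32 for the other 5 polysome libraries. Counts of called members that rest on polysome LF, and TE differences of LF against MF, are therefore given with and without each of its replicates. NSC markers were high, with Vim at 3753 to 4486 TPM (a transcript abundance scaled for gene length and library size) in total mRNA and Nes, Sox2, Pax6, Sox9 and Fabp7 present in every library. The 6 NSC markers summed in total mRNA to 6380 to 6441 TPM in LF, 6755 to 7129 in MF and 7513 to 8130 in HF, and in polysome mRNA to 8579 to 8617 in LF, 6940 to 7198 in MF and 7025 to 7431 in HF. Vim and Fabp7 made up most of these sums. The 4 neuron markers summed to 33.6 to 39.5 TPM in total mRNA, and in polysome mRNA to 19.0 to 29.1 in LF, 60.4 to 80.5 in MF and 44.5 to 48.7 in HF, nearly all of it Tubb3. The 5 mural and mesenchymal markers, mostly Acta2, summed in total mRNA to 71.8 to 81.5 TPM in LF, 68.2 to 73.5 in MF and 43.2 to 56.1 in HF. In polysome mRNA they summed to 205 to 307 in LF, 246 to 267 in MF and 378 to 452 in HF. The 4 astrocyte markers summed in total mRNA to 30.3 to 36.9 TPM in LF, 39.7 to 44.25 in MF and 43.8 to 57.1 in HF. In polysome mRNA they summed to 10.1 to 17.4 in LF, 22.1 to 29.5 in MF and 12.7 to 22 in HF. Nearly all of this was Aldh1l1, while Gfap, Aqp4 and S100b each had at most 1.0 TPM in any library. Oligodendrocyte lineage markers (4) reached at most 137 TPM, mostly Olig2. Microglial markers (4) summed to at most 2.42 TPM with Aif1 and Cx3cr1 at 0 throughout, endothelial markers (4) to at most 1.95 with Cldn5 at 0, and ependymal and choroid plexus markers (4) to at most 3.30. Between doses, Fabp7 rose in total mRNA of HF against LF (log2 difference 0.43, edgeR adjusted p = 0.00121) and Pdgfrb fell (−0.51, adjusted p = 0.00781, edgeR). The part of the NSC, neuron, astrocyte and mural markers in the dose values below was not tested. Between polysome and total mRNA over the 3 doses, by the test described below, 2 of the 6 NSC markers tested were higher and 1 lower. Among all genes, 32.7% were higher and 38.4% lower. The counts of higher and lower genes were 1 and 1 of 3 for neurons, 1 and 2 of 3 for astrocytes and 1 and 1 of 3 for the oligodendrocyte lineage. They were 0 and 1 of 1 for microglia, 1 and 0 of 2 for endothelium, 3 and 0 of 4 for mural and mesenchymal cells and 0 and 1 of 2 for ependyma and choroid plexus. In these bulk samples, fewer cells of a type and less RNA per cell cannot be told apart.

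The 10 mRNAs together made up between 0.256% and 0.271% of all TPM in total mRNA and between 0.249% and 0.275% in polysome mRNA. They held 87.2% to 88.2% of the TPM of the 24 selenoprotein genes in total mRNA and 83.7% to 86.2% in polysome mRNA. Their order differed between the fractions. TPM is used here to compare levels between genes.

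In total mRNA, Selenow was the most abundant at 660 to 750.2 TPM (median 706), followed by Selenof at 552 to 594 (median 578) and Gpx4 at 428 to 485 (median 443). Gpx1 (252 to 289), Selenok (208 to 229), Txnrd1 (166 to 180 TPM) and Selenot (137 to 161) followed in steps, and no library of one gene reached the range of the next. The least abundant were Selenom (35.4 to 50.4), Selenop (35.6 to 40.6), whose ranges overlapped, and Txnrd2 (9.39 to 10.9). In polysome mRNA, Gpx4 led with 527 to 783 TPM, and Selenow ranked in the fifth place with 117 to 332 TPM. Selenow made up 25.8% to 28.6% of the TPM of the 10 mRNAs in total libraries but 4.27% to 12.7% in polysome libraries. Selenok moved the other way, from the fifth place to the third, at 357 to 538 TPM. Within a fraction, the coefficient of variation of the 6 libraries was 3.17% to 13.6% in total mRNA and 13.1% to 45.7% in polysome mRNA, on the scale of CPM, counts scaled to library size.

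**Figure D1:**
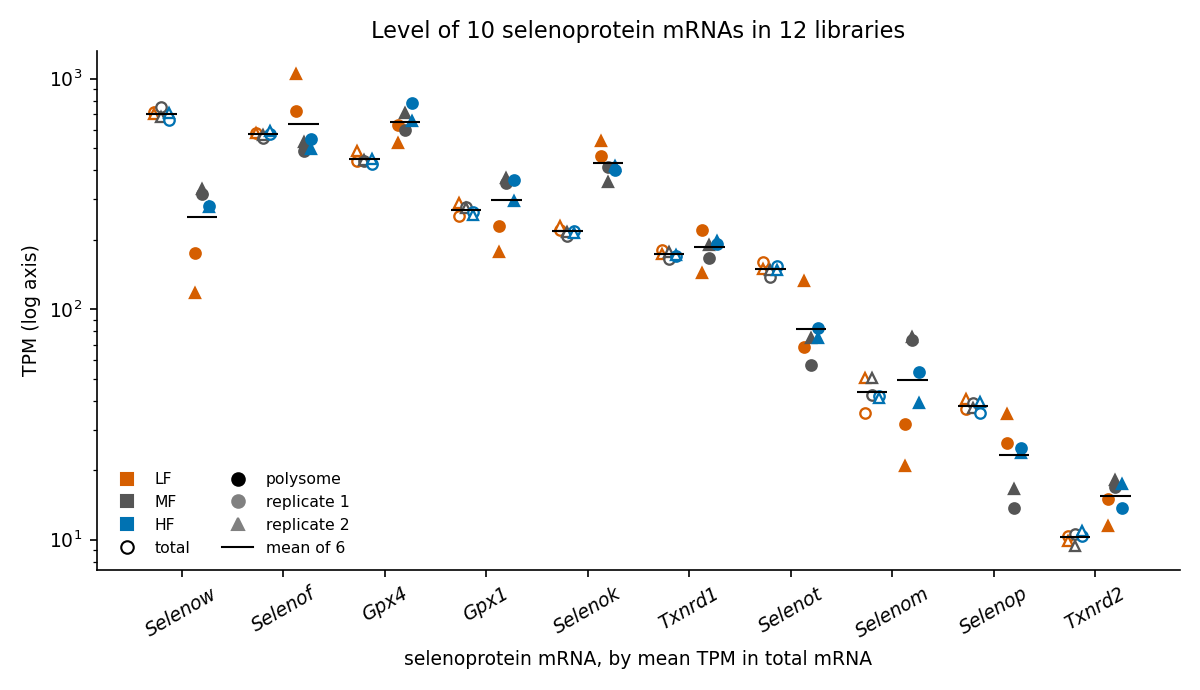
TPM (log axis) of the 10 selenoprotein mRNAs in each library, open symbols for total and filled for polysome mRNA, coloured by dose, with the mean of the 6 libraries of a fraction as a line. The total libraries of a gene lie close together, while Selenow sits lower and Selenok higher in all polysome libraries, and polysome LF replicate 2 (filled orange triangle) lies at one end of the polysome range in all 10.

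Polysome loading was tested as the log2 difference of polysome and total mRNA. It was fitted with edgeR's quasi-likelihood test over 14421 genes in 12 libraries, with TMM scaling and Benjamini-Hochberg adjustment over all genes, and a call required a fold change above 1.2 with an adjusted p under 0.05. Averaged over the 3 doses, 9 of the 10 mRNAs were called, against 71.0% of all genes. Of these, 6 were higher in polysomes (32.7% of all genes) and 3 lower (38.4%). The median of the 10 was 0.39 and that of all genes −0.09 on the log2 scale. These are differences relative to the other mRNAs of the fraction. On the TPM scale the median gene stood at −0.37 and the 10 differences were lower by a similar step without a change of sign, with Selenok at 0.97, Txnrd1 at 0.09, Gpx1 at 0.10, Selenom at 0.04 and Selenow at −1.58. CPM below are scaled by TMM over the 12 libraries.

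The thioredoxin reductases return thioredoxin to its reduced form, Txnrd1 in the cytosol and Txnrd2 in mitochondria. Both were higher in polysome mRNA. Txnrd1 (ENSMUSG00000020250, chr10:82833951-82897712, plus strand, Sec codon at chr10:82896037-82896039) had 297 to 325 CPM in the total libraries (median 318). In polysome mRNA it had 502 and 342 CPM in LF, 395 and 435 in MF, and 454 and 470.1 in HF. The polysome values all exceeded the total values, and LF replicate 2 came closest to them. The log2 difference was 0.39 ± 0.091 (SE, n = 6 per fraction, edgeR adjusted p = 0.00246).

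Txnrd2 (ENSMUSG00000075704, chr16:18426384-18479073, plus strand, Sec codon at chr16:18477772-18477774) was the least abundant of the 10, at 6.58 to 8.22 CPM in total mRNA (median 7.31). In polysome mRNA it reached 14.2 and 8.80 CPM in LF, 17.7 and 16.7 in MF, and 14.6 and 18.3 in HF, again with no overlap between fractions. It was higher by a log2 difference of 0.96 ± 0.13 (edgeR adjusted p = 7.16e-05), a fold of 1.94. The sources used here do not give the strand setting of the counting, so values of members that overlap other genes are uncertain to that extent. Txnrd1 overlaps Eid3 on its own strand, which was not analysed here.

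The glutathione peroxidases use glutathione to remove peroxides, Gpx1 mainly hydrogen peroxide and Gpx4 lipid hydroperoxides in membranes, through which it holds off ferroptosis. Gpx4 (ENSMUSG00000075706, chr10:80047166-80056439, plus strand, Sec codon at chr10:80054737-80054739) had 144 to 171 CPM in total mRNA (median 149). Polysome values were 233 and 204 CPM in LF, 257 and 293 in MF, and 326 and 269.6 in HF, all above the total libraries. Gpx4 was higher in polysomes by 0.73 ± 0.080 (log2, adjusted p = 1.29e-05, edgeR), a fold of 1.65.

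Gpx1 (ENSMUSG00000063856, chr9:108338903-108340343, plus strand, Sec codon at chr9:108339451-108339453) had 64.2 to 75.7 CPM in total mRNA (median 69.3). Its polysome values were 72 and 60.8 CPM in LF, 115 and 118 in MF, and 119 and 95.0 in HF. The LF libraries overlapped the total libraries, and those of MF and HF did not. Over the 3 doses Gpx1 was higher by 0.38 ± 0.086 (log2, edgeR adjusted p = 0.00227).

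The next members act in the endoplasmic reticulum or leave the cell through it. Selenok, a membrane protein that takes part in the degradation of misfolded proteins and in palmitoylation, had the largest polysome excess of the 10. Selenok (ENSMUSG00000042682, chr14:29968308-29975662, plus strand, Sec codon at chr14:29973440-29973442) had 96.9 to 106 CPM in total mRNA (median 102). In polysome mRNA it had 268 and 332 CPM in LF, 253 and 212 in MF, and 247 and 255 in HF, all far above the total libraries. It was higher by 1.29 ± 0.081 (log2, edgeR adjusted p = 2.41e-07), a fold of 2.44.

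Selenof, a partner of the glycoprotein folding sensor UGGT, lies at chr3:144570304-144597680 on the plus strand (ENSMUSG00000037072, Sec codon at chr3:144590645-144590647). It had 313 to 344 CPM in total mRNA (median 333) and in polysome mRNA 531 and 837 CPM in LF, 381 and 422 in MF, and 428 and 383 in HF. All polysome values exceeded the total values, with the LF libraries highest. The log2 difference was 0.48 ± 0.11 (edgeR adjusted p = 0.00186).

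Selenom, a small thioredoxin-like protein of the reticulum, lies at chr11:3514684-3517351 on the plus strand (ENSMUSG00000075702, Sec codon at chr11:3516273-3516275). Total mRNA gave 8.84 to 12.9 CPM (median 10.8), and polysome mRNA 9.70 and 6.92 CPM in LF, 23.9 and 23.8 in MF, and 17.5 and 12.7 in HF. The fractions overlapped, with LF within or below the range of the total libraries and MF above it. Its log2 difference of 0.32 ± 0.14 missed the threshold (edgeR adjusted p = 0.0602). Over 18 alternative fits, 7 called it, with adjusted p from 0.00508 to 0.166. With libraries left out in turn, Selenom was called without total LF replicate 2, without either polysome LF replicate and without polysome HF replicate 2.

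Selenot, a thioredoxin-like protein of the same compartment, lies at chr3:58576636-58593133 on the plus strand (ENSMUSG00000075700, Sec codon at chr3:58585238-58585240). It was lower in polysomes. Total mRNA gave 224 to 264 CPM (median 249.9), and polysome mRNA 143 and 289 CPM in LF, 124 and 159 in MF, and 180.4 and 162 in HF. Polysome LF replicate 2 was the one polysome library above the total libraries, and the other 5 were below all of them. The log2 difference was −0.58 ± 0.15 (edgeR adjusted p = 0.00558). It was −0.77 without that library (adjusted p = 3.44e-08, edgeR) and −0.38 without polysome LF replicate 1 (adjusted p = 7.57e-05, edgeR).

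Selenop, the secreted carrier of selenium to other cells, lies at chr15:3268547-3280508 on the plus strand (ENSMUSG00000064373, first Sec codon at chr15:3274848-3274850). Total mRNA gave 32.3 to 37.1 CPM (median 33.4), and polysome mRNA 29.8 and 44.3 CPM in LF, 17.3 and 19.9 in MF, and 29.3 and 28.4 in HF. The fractions overlapped through LF replicate 2, and MF was the lowest. The log2 difference was −0.39 ± 0.11 (edgeR adjusted p = 0.00733). Without polysome LF replicate 1 it was −0.25 (adjusted p = 0.00188, edgeR), which is under the fold of 1.2. Ccdc152, which overlaps it on the opposite strand, was listed at 0 TPM in all libraries.

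Selenow, a small cytosolic redox protein, lies at chr7:15917208-15922402 on the minus strand (ENSMUSG00000041571, Sec codon at chr7:15920464-15920466) and stood lowest of the 10. Total mRNA gave 179 to 197 CPM (median 188), while polysome mRNA gave 56.7 and 40.9 CPM in LF, 109.7 and 112 in MF, and 97.8 and 95.0 in HF. No polysome library reached the total libraries, and LF was the lowest. The log2 difference was −1.28 ± 0.086 (edgeR adjusted p = 3.66e-07), a fold of 2.42 lower. Across 18 alternative fits it ran from −1.31 to −1.2.

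Without overlap of the 6 polysome and the 6 total libraries, 5 members were higher (24.4% of all genes) and 1 was lower (27.6%). Tested dose by dose, 5 members were called in LF (53.6% of all genes), 8 in MF (55.2%) and 6 in HF (56.4%). In LF, 4 were higher (25.0%) and 1 lower (28.5%), in MF 5 were higher (26.0%) and 3 lower (29.3%), and in HF 5 were higher (25.7%) and 1 lower (30.7%). The LF count was 8 without polysome LF replicate 2 (62.7% of all genes), 6 without replicate 1 (66.7%) and 3 without total LF replicate 1 (38%). The HF count was 9 without polysome LF replicate 2 (69.2%), which enters it through the shared estimate of spread, and 4 without polysome HF replicate 1 (44.4%). Selenok, Txnrd2 and Gpx4 were called higher and Selenow lower at each of the 3 doses. The LF calls of Txnrd2 and Gpx4 did not hold throughout. Txnrd2 had a log2 difference of 0.68 in LF (edgeR adjusted p = 0.0296), 0.35 without polysome LF replicate 1 (adjusted p = 0.109, edgeR) and 0.98 without replicate 2. It was not called without either total LF replicate. Gpx4 had 0.40 in LF (edgeR adjusted p = 0.0314) and 0.30 without total LF replicate 1 (adjusted p = 0.212, edgeR), and it was not called with any 1 of the total MF and HF libraries left out. Both calls were also lost when LF was fitted alone. Txnrd1 was called in HF, and its log2 differences were 0.32, 0.37 and 0.50 in LF, MF and HF. Its LF value was 0.073 without polysome LF replicate 1 and 0.57 without replicate 2.

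**Figure D2:**
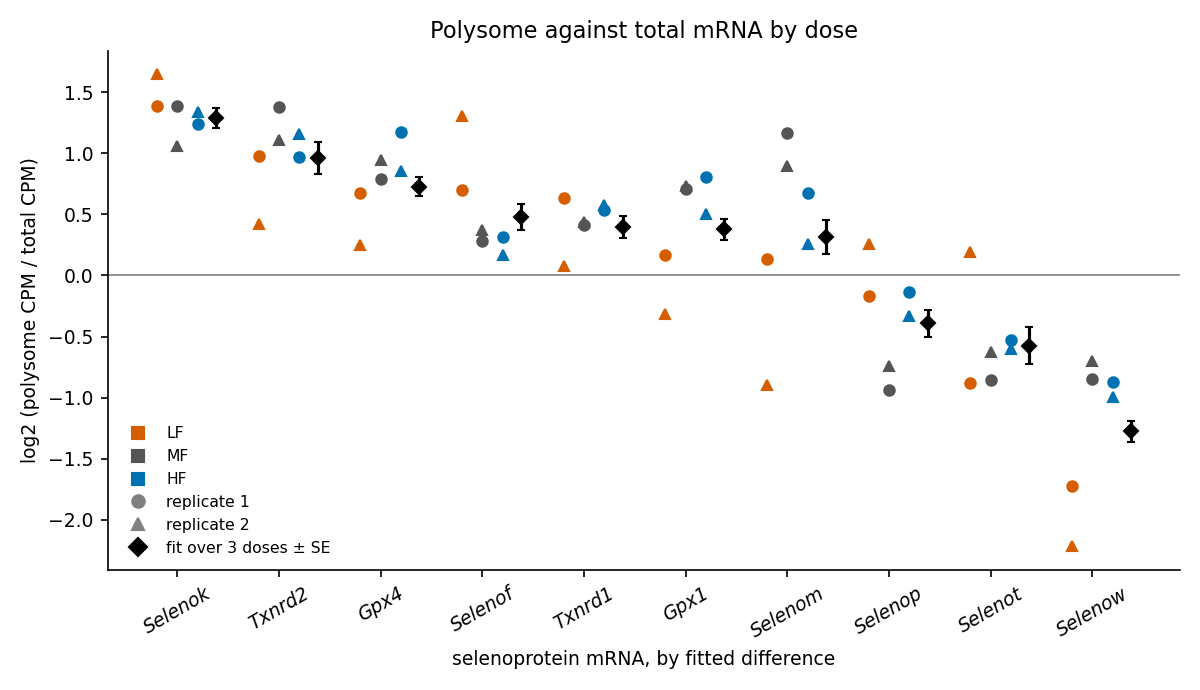
Polysome CPM over total CPM (log2) of the 10 selenoprotein mRNAs, by dose (colour) and replicate number (symbol), which pairs libraries by label alone, with the fitted difference over the 3 doses ± SE in black. Selenok lies between 1.06 and 1.65 and Selenow between −2.21 and −0.70 in every pair, and LF replicate 2 is the highest or lowest point in all 10.

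The place of the first Sec codon and the polysome difference ran in parallel. Across the 10 members, Spearman's rho between the share of the coding sequence before the first Sec codon and the log2 difference was 0.794 (Pearson's r = 0.761). Of the 14 selenoprotein genes that are not members, 10 could be tested, and rho in them was 0.721 (r = 0.59). Over the 20 together rho was 0.735 (r = 0.618). These are descriptions across genes, which share the same 12 libraries and are not independent replicates, and the relation was looked for after the values were seen. In single pairs of a polysome and a total library rho ran from 0.515 to 0.806 in the members. It was 0.721 in LF, 0.648 in MF and 0.673 in HF.

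Coding length gave a lower rho, 0.236 in the members and 0.227 in the 20 genes, and the number of codons before the first Sec codon gave 0.697 and 0.618. Over all genes, loading was higher at middle coding lengths than at both ends, as given below. A rank correlation therefore cannot show the part of coding length. Taking for each gene the transcript with the earliest relative Sec codon lowered rho to 0.636 in the members and 0.65 in the 20 genes. Gpx4 moved most under that choice, from 50.6% to 20.4% of the coding sequence. Selenow and Selenok show the contrast at nearly equal coding length, although their annotated transcripts are 736 and 1678 bases long. Their coding sequences are 264 and 282 bases long, the first with Sec at residue 13 and the second at residue 92, and their log2 differences were −1.28 and 1.29. Gpx1 and Selenot, with 603 and 585 coding bases and the codon at 22.9% and 24.6%, are alike in both measures, and their log2 differences were 0.38 and −0.58. The annotated transcripts of Gpx1 and Selenot are 1072 and 3157 bases long. Both pairs were chosen after the values were seen.

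By classes drawn after the values were seen, all 7 tested genes with the first Sec codon past 90% of the coding sequence were higher in polysomes, with a median log2 difference of 0.78. They were Selenok, Txnrd1, Txnrd2, Txnrd3, Selenos, Selenoo and Selenoi. Of the 5 between 40% and 90%, 4 were higher, Gpx4, Selenof, Selenon and Msrb1, and Dio2 was lower at −2.30. Gpx4 stands there by its longest product, and its transcript with the earliest Sec codon (20.4%) would place it in the first 40%. Of the 8 in the first 40%, 1 was higher (Gpx1) and 4 were lower (Selenow, Selenop, Selenot and Selenoh). The other 3 were not called (Selenom, Gpx3 and Sephs2), and the median of the 8 was −0.24. These class counts stand beside 32.7% higher and 38.4% lower among all genes. Coding length itself went with polysome loading over all genes. Among genes with under 300 coding bases, the class of Selenow and Selenok, 31.5% were higher and 34.2% lower. From 300 to under 600 bases, which holds Selenot, Selenof and Selenom, 55.3% were higher and 15.7% lower, and from 600 to under 1200, which holds Gpx1, Gpx4 and Selenop, 55.3% and 17.9%. From 1200 to under 2400 bases, the class of Txnrd1 and Txnrd2, 31.2% were higher and 34.3% lower. From 2400 bases, where no member lies, 7.82% were higher and 67.9% lower. Selenot and Selenop were thus lower in classes where the larger share of genes was higher. The part of coding length in the relation was not tested.

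**Figure D3:**
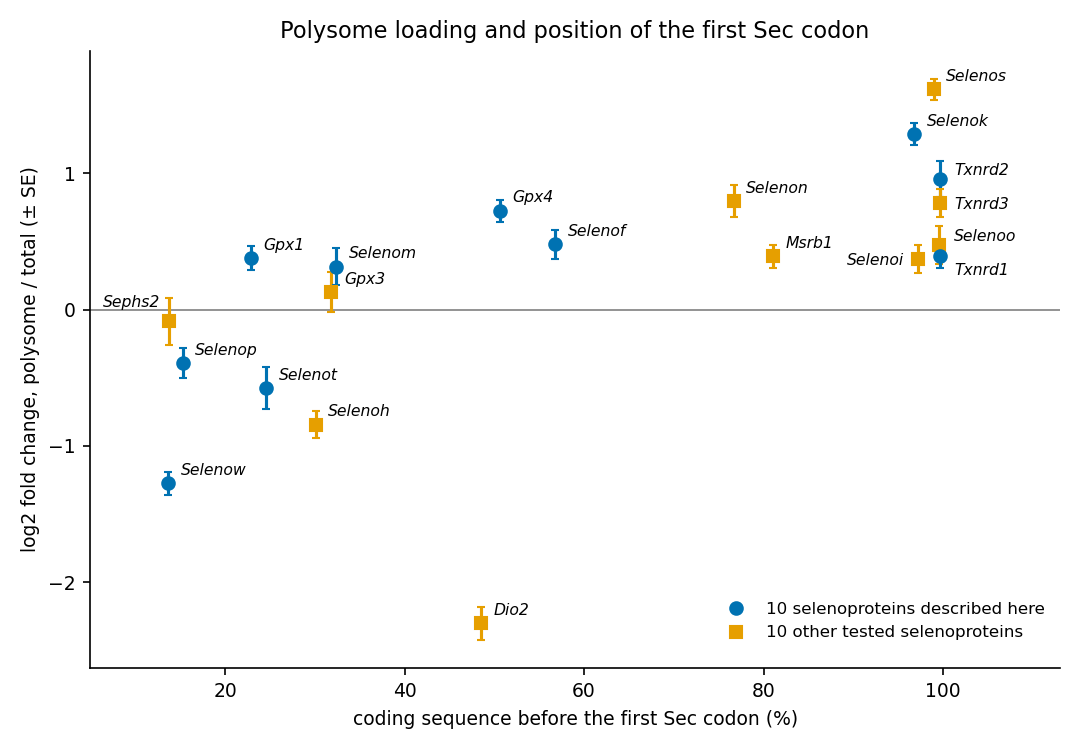
Log2 fold change of polysome against total mRNA over the 3 doses (± SE) against the share of the coding sequence before the first Sec codon, for the 10 members (circles) and 10 other tested selenoproteins (squares). Genes with the codon near the end lie above 0, those with an early codon lie mostly at or below it, and Dio2 lies far below the rest at −2.30.

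Folic acid dose was compared first in total mRNA, in 6 libraries and 13912 genes. Total levels of the 10 mRNAs were close at the 3 doses. None was called in LF against MF (0.00719% of all genes), HF against MF (0.0863%, of which 0.0288% higher and 0.0575% lower) or HF against LF (1.79%, of which 0.805% higher and 0.985% lower) with edgeR, and DESeq2 and limma voom also called 0. At an unadjusted p under 0.05, edgeR gave 1, 0 and 0 members, and 872, 971 and 1750 of all 13912 genes. The 1 member was Selenot in LF against MF (log2 difference 0.14 ± 0.049, edgeR adjusted p = 0.691). Over the 30 differences (10 mRNAs in 3 comparisons), log2 values ran from −0.13 to 0.17 with SE from 0.044 to 0.155. Txnrd2 in HF against LF was the largest, 0.17 ± 0.14. In LF against MF, 5 members were higher without overlap of the libraries (18.0% of all genes), Txnrd1, Selenop, Selenot, Selenok and Selenof, and 0 were lower (17.1%).

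Polysome levels differed more between doses, and so did the replicates. No member was called in LF against MF (0.0223% of 13433 genes), HF against MF (0.0%) or HF against LF (0.0149%) with edgeR. An unadjusted p under 0.05 was reached by 5, 1 and 5 members, and over all genes by 2324, 453 and 1882 of the 13433. DESeq2 called 4, 0 and 1 members (4.97%, 0.179% and 2.94% of all genes) and limma voom 0 in each (0.0596%, 0.0% and 0.0298%). The biological coefficient of variation, the fitted spread between replicates, was 0.231 in polysome and 0.0433 in total mRNA. Without overlap of the libraries, 3 members were higher (25.8% of all genes) and 5 lower (24.4%) in LF than in MF. LF against MF and HF against MF share the MF libraries.

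Translation efficiency (TE), the polysome level over the total level, was compared between doses as an interaction in one fit over all 12 libraries. That fit, also used for polysome against total mRNA, shares the estimate of spread of a gene between the fractions. Its biological coefficient of variation was 0.164, between the 0.0433 of total and the 0.231 of polysome mRNA, so its SE and p-values rest on a mixed spread. Here too no member was called in LF against MF (0.236% of 14421 genes, 0.0347% higher and 0.201% lower), HF against MF (0.0%) or HF against LF (0.0971%, 0.0763% higher and 0.0208% lower) with edgeR. An unadjusted p under 0.05 was reached by 5, 1 and 5 members. DESeq2 called 3, 0 and 2 members (4.55%, 0.201% and 4.99% of all genes), and limma voom 1, 0 and 0 (0.319%, 0.0% and 0.146%). Over all genes 2277 reached that unadjusted p in LF against MF, 599 in HF against MF and 2114 in HF against LF.

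The member closest to the threshold was Selenow. Its log2 ratios of polysome to total CPM were −1.72 and −2.21 in LF, −0.84 and −0.70 in MF, and −0.87 and −0.99 in HF, so that the LF pairs lay below all others. The TE difference of LF against MF was −1.18 ± 0.21 (log2, n = 2 libraries per fraction and dose, edgeR adjusted p = 0.0589), and that of HF against LF was 1.02 ± 0.21 (adjusted p = 0.0786, edgeR). Without polysome LF replicate 1 the LF against MF value was −1.43 (adjusted p = 1.50e-06), and without replicate 2 it was −0.97 (adjusted p = 0.00123). In both of these fits LF had 1 polysome library, whose spread is taken from the other groups. HF against MF gave −0.16 ± 0.21 (edgeR adjusted p = 0.982).

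Selenom and Gpx1 had the same sign. For Selenom the log2 ratios were 0.13 and −0.90 in LF, 1.16 and 0.90 in MF, and 0.68 and 0.25 in HF. LF lay below MF in both replicates by a TE difference of −1.41 ± 0.34 (edgeR adjusted p = 0.125), with −1.67 without polysome LF replicate 1 and −1.2 without replicate 2. For Gpx1 the ratios were 0.17 and −0.32 in LF, 0.71 and 0.73 in MF, and 0.81 and 0.50 in HF, and the TE difference of LF against MF was −0.80 ± 0.21 (edgeR adjusted p = 0.15), with −0.92 and −0.69 in the same order. Both mRNAs were below their MF and HF ratios in LF, although neither difference passed the test with all libraries.

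Selenop and Selenof had the opposite sign. For Selenop the log2 ratios were −0.17 and 0.25 in LF, −0.93 and −0.74 in MF, and −0.14 and −0.34 in HF. MF was the lowest dose for this mRNA, with TE differences of 0.90 ± 0.27 for LF against MF (edgeR adjusted p = 0.18) and 0.59 ± 0.27 for HF against MF (edgeR adjusted p = 0.982). The LF value was 1.16 without polysome LF replicate 1 and 0.57 without replicate 2. For Selenof the ratios were 0.70 and 1.31 in LF, 0.28 and 0.37 in MF, and 0.32 and 0.17 in HF, a TE difference of 0.71 ± 0.26 for LF against MF (edgeR adjusted p = 0.242). It was 1.00 without polysome LF replicate 1 and 0.33 without replicate 2. The other 5 members had TE differences of LF against MF between −0.51 (Txnrd2) and 0.47 (Selenot). Without polysome LF replicate 1 and replicate 2, in that order, these were −0.88 and −0.21 for Txnrd2, 0.89 and −0.13 for Selenot, −0.34 and 0.19 for Txnrd1, −0.51 and −0.33 for Gpx4 and 0.44 and 0.12 for Selenok. The size of these differences, and for Selenot and Txnrd1 the sign, depended on the LF library kept.

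The counts that involve LF depended on which polysome LF library was kept. For TE in LF against MF, 10 members were called without replicate 1 (46.2% of all genes) and 4 without replicate 2 (6.76%), namely Selenow, Selenom, Gpx1 and Selenop. For TE in HF against LF the counts were 10 (37.6%) and 3 (17.2%), the 3 being Selenow, Gpx1 and Selenof. In polysome mRNA, LF against MF gave 9 (50.5%) and 4 (6.83%) and HF against LF 10 (39.3%) and 2 (15.4%), the 2 being Selenow and Gpx1. HF against MF, which does not use LF but shares its spread, gave 2 members in polysome mRNA without replicate 1 (5.12%) and 2 without replicate 2 (5.68%), Selenop at 0.62 and Selenom at −0.67. For TE, the largest HF against MF difference of the 10 was that of Selenop, at 0.59 in both fits. In polysome mRNA the neuron marker sum was also lowest in LF, and the astrocyte sum, mostly Aldh1l1, was lower in LF than in MF. The NSC sum, mostly Vim and Fabp7, was highest in LF. These sums are given above, and the part of the markers in the dose values was not tested.

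**Figure D4:**
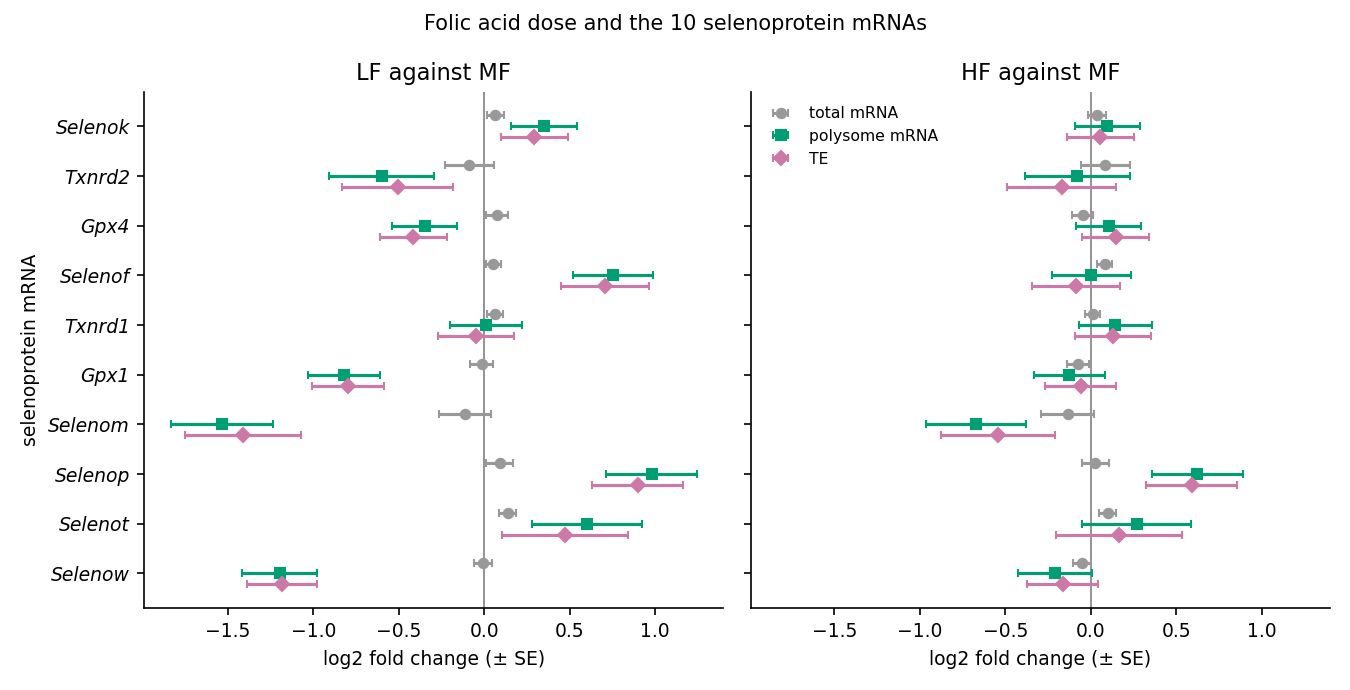
Log2 fold changes (± SE) of the 10 selenoprotein mRNAs for LF against MF and HF against MF, in total mRNA, polysome mRNA and TE. Total mRNA lies near 0 throughout, while in LF against MF the polysome and TE values spread from −1.54 for Selenom to 0.98 for Selenop.

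The remaining selenoprotein and partner genes were described by lists. Their counts over the 3 doses stand beside 32.7% higher and 38.4% lower among all genes. Of the 14 other selenoprotein genes, 6 of the 10 tested were higher in polysomes over the 3 doses, 2 were lower and 2 were not called, with a median log2 difference of 0.38. Selenos, which works with Selenok in the degradation of misfolded proteins, was higher at 1.62 ± 0.078 (edgeR adjusted p = 5.06e-08), Selenon at 0.80 and Txnrd3 at 0.78. Dio2, an iodothyronine deiodinase, was lower at −2.30 ± 0.12 (edgeR adjusted p = 8.04e-08), and Selenoh, the most abundant of the list at 87.3 to 110.3 TPM in total mRNA, at −0.84. With edgeR over all libraries of a fit, Dio2 was the one gene of the 14 called between doses, with 0.77 ± 0.14 in total mRNA of HF against LF (edgeR adjusted p = 0.0141). Without total HF replicate 1 it was at 0.59 and not called (adjusted p = 0.0798, edgeR), and it was also not called without total MF replicate 1 or 2 (adjusted p = 0.0687 and 0.0648, edgeR).

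Among 15 genes of Sec synthesis and insertion, 8 were higher in polysomes (32.7% of all genes), 3 lower (38.4%) and 4 not called. The median was 0.31. Sars, the seryl-tRNA synthetase that charges the Sec tRNA with serine, was highest at 2.65, followed by the kinase Pstk at 1.32, Eif4a3 at 1.22 and Trnau1ap at 1.18. Alkbh8, which methylates the wobble base of the Sec tRNA, was lower at −2.20. Rpl30, the most abundant of the list and a ribosomal protein that binds SECIS elements, was higher at 0.38. All 3 receptors of Selenop were lower, Lrp1 at −2.74, Lrp8 at −1.25 and Lrp2 at −0.42, of which Lrp1 was the most abundant. No gene of either list was called between doses.

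Of 6 homologs that carry cysteine in place of Sec, 4 were tested and 3 were higher, Gpx7 at 2.23, Gpx8, the most abundant, at 1.44 and Msrb2 at 1.12, while 1 was not called. Their median was 1.28, and among all genes 32.7% were higher and 38.4% lower. Of 14 thioredoxin and peroxiredoxin partners, 12 were higher and 0 lower, with a median of 0.98. Prdx4 (2.05), Txnip (1.65), Prdx6 (1.56), Prdx5 (1.35) and Prdx3 (1.31) led, and Prdx1, the most abundant, stood at 1.11. Of 10 genes known as targets of NRF2, the transcription factor of the oxidative stress response, 8 were higher and 0 lower, with a median of 0.87. These were led by the cystine transporter Slc7a11 at 2.73, Hmox1 at 2.13, Gsta4, the most abundant, at 1.53, Nqo1 at 1.22 and Osgin1 at 0.94. Slc7a11 was called between doses too, at 0.79 ± 0.12 in total mRNA of HF against LF (edgeR adjusted p = 0.00384).

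Of 8 partners of the members in the endoplasmic reticulum, 4 were higher and 1 lower, with a median of 0.25. Derl1, a partner of Selenok, was at 1.25, Zdhhc6, the palmitoyl transferase that Selenok assists, at 1.03, Derl2 at 0.73 and Sel1l at 0.50, while Uggt2, a glucosyltransferase bound by Selenof, was lower at −1.83 and Vcp, the most abundant, was at 0.00. Of 8 factors of nonsense-mediated decay, which can act on mRNAs whose Sec UGA is read as a stop, 6 were lower and 1 higher, with a median of −0.87. Smg1 (−2.37), Upf2 (−1.91), Upf3b (−1.74) and Upf1 (−1.30) were lower, Upf3a was higher at 1.01, and Smg5, the most abundant, stood at −0.21 without a call. Over all 14421 genes, 32.7% were higher and 38.4% lower. Coding length went with loading over all genes, as given above, and its part in these list counts was not tested. No gene of the last 2 lists was called between doses.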

How the data were processed

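Poly(A) RNA of total and polysome fractions was sequenced in 12 libraries, 2 per fraction and dose. The deposited tables held an expected count, TPM and FPKM per gene, which the authors made by trimming read pairs and aligning them with Bowtie2 2.2.9 to mm10 with RSEM 1.3.0, as stated by the submitters' processing notes and the methods. RSEM divides a read pair that fits several genes, so the deposited expected counts need not be whole, and 4.04% to 5.95% of values in a library were not. TPM and FPKM were computed by the authors from these counts and an effective gene length, a length RSEM weights by transcript. FPKM was not used. The sources used here do not give the strand setting. The 3 pseudogenes of members with a row in the tables held at most 15 counts over all libraries. Values of 1 overlapping gene are not reported here.

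Expected counts were rounded and tested with edgeR 4.0.16 (R 4.3.3) using TMM scaling, filterByExpr, robust dispersion estimates and the quasi-likelihood F test in its robust form, adjusted over all genes by Benjamini-Hochberg. Calls needed an adjusted p under 0.05 and a fold above 1.2. Unless another tool is named, adjusted p-values are from edgeR. Dose comparisons used the 6 libraries of a fraction with 3 residual degrees of freedom, and TE and polysome against total mRNA used all 12 with 6. TE was tested as an interaction in place of Xtail. The fit was tested on simulated data. Alternatives were DESeq2 1.42.0, its size factors, limma 3.58.1 voom, filters of at least 1 count or a mean of at least 10 counts, a replicate block, the compared groups alone, and each library left out. Positions and Sec codons came from GENCODE M21, which matched 42462 identifiers. For the Sec codons, the complete transcript with the most annotated Sec codons was used, and among equals that with the longest coding sequence. The coding length classes used the longest coding sequence per gene. Read pairs carry no molecular identifiers, and counting error is the least error possible. The members and lists, among them markers of 8 cell types, were chosen with earlier results of these data known. Sephs2 and Srxn1 stand in 2 lists each. Named were all members and, from each other list, up to 5 called genes of the largest change and its most abundant gene.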

Additional observations from a re-analysis of the deposited data

How the results depend on the processing

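Polysome loading over the 3 doses kept its sign for all 10 mRNAs under every alternative. In the alternatives that kept all 12 libraries, 9 to 10 members were called, against 50.6% to 71.8% of all genes. The dose results depended on the fit. In polysome mRNA, LF against MF gave 4 called members with DESeq2 (4.97% of all genes), 2 with a filter of at least 1 count (2.71%) and 0 to 9 with 1 library left out (0.0144% to 50.5%), HF against MF gave 2 in the compared groups alone (5.34%) and 0 to 2 (0.0% to 5.68%), and HF against LF gave 1 with DESeq2 (2.94%), 1 with at least 1 count (1.26%) and 0 to 10 (0.0144% to 39.3%). For TE, LF against MF gave 1 with DESeq2 size factors (0.374%), 3 with DESeq2 (4.55%), 1 with limma voom (0.319%), 2 with at least 1 count (1.05%) and 0 to 10 with 1 library left out (0.0134% to 46.2%), HF against MF gave 0 to 1 (0.0% to 2.99%), and HF against LF gave 2 with DESeq2 (4.99%), 1 with at least 1 count (0.858%) and 0 to 10 (0.0134% to 37.6%). Polysome against total mRNA in LF gave 2 in the compared groups alone (24.9%) and 3 to 8 with 1 library left out (38% to 66.7%). The cause was not tested. The Spearman correlation between Sec codon position and loading, examined after the data were seen, was 0.648 to 0.794 in the members and 0.650 to 0.773 in the 20 genes with 1 library left out, lowest without total LF replicate 2 and, for the members, also without polysome HF replicate 2.

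Among the differences called under at least 1 setting, signs turned in some that were not called with all libraries. Without polysome LF replicate 1 and replicate 2, in that order, polysome HF against LF was 0.41 and −0.12 for Txnrd1 and −0.78 and 0.26 for Selenot. Txnrd1 in polysome LF against MF, called under no setting, was 0.0096 with all libraries and −0.27 and 0.26 in that order. In the same order, TE of LF against MF was −0.34 and 0.19 for Txnrd1 and 0.89 and −0.13 for Selenot, and TE of HF against LF was 0.48 and −0.066 for Txnrd1, −0.56 and 0.018 for Selenop and −0.73 and 0.30 for Selenot. Polysome against total mRNA in LF was 0.32 and −0.31 for Selenop and 0.16 and −0.91 for Selenot. Txnrd1 in TE of LF against MF was 0.0078 without total MF replicate 1 and 0.012 without polysome MF replicate 2. In LF, Selenop polysome against total was −0.022 with limma voom, −0.014 with a mean of at least 10 counts, −0.0031 in the compared groups alone and −0.056 without total LF replicate 1.

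The groups share replicate numbers 1 and 2, but nothing says that equal numbers share a source, and the correlation of replicate differences between groups ran from −0.14 to 0.138. With the replicate number as a block, 2 members were called in polysome LF against MF (1.72% of all genes), Selenow and Selenom, and Selenop in LF stood at −0.0032. The block changed no other count of called members.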

Other observations

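The effective length that the tables list for a gene depends on the fragment lengths of the library and is weighted by the gene's transcripts. For Gpx4, whose longest product has 253 residues and whose transcripts place the Sec codon between 20.4% and 50.6% of the coding sequence, it was 506 to 570 bases in the polysome libraries and 571 to 593 in the total libraries, with no overlap. For Selenow, annotated with 1 complete coding transcript, the ranges were 443 to 462 and 453 to 459, and for Gpx1, also with 1, 429 to 453 and 440 to 451. For Txnrd2 they were wide in both fractions, 1012 to 1410 and 1124 to 1420. Isoforms were not analysed here, and this comparison was made after the values were seen.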
